A study of Mus musculus with 27 samples.

Results

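The miR-183 cluster and the miR-200 family were followed, library by library, in small RNA sequencing of mouse cortex after experimental stroke. Their 8 members are mmu-miR-182-5p, mmu-miR-183-5p, mmu-miR-96-5p, mmu-miR-200a-3p, mmu-miR-200b-3p, mmu-miR-200c-3p, mmu-miR-141-3p and mmu-miR-429-3p (the prefix mmu, for mouse, is left out below), taken by name from the 1842 mature miRNA entries of the count table. The mice were wild-type C57BL6 aged 7 to 8 weeks, and no group carried a transgene or a deletion per the labels. In middle cerebral artery occlusion (MCAO), a suture closed the artery for 35 min, and cortex of the occluded hemisphere (ipsi) or the opposite hemisphere (contra) was taken after 3, 6, 12 or 24 h of reperfusion. Sham mice were anesthetized and had their arteries exposed with no suture inserted. The 27 libraries form 9 groups of 3, sham and contra_3h to ipsi_24h, and each replicate number stands for a separate day of surgery. The labels do not say whether a contra and an ipsi library came from the same mouse.

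The miR-183 cluster is best known from sensory organs, where its 3 miRNAs are abundant in photoreceptors and in hair cells of the inner ear. The miR-200 family is characteristic of epithelia, where it represses the transcription factors Zeb1 and Zeb2 and thereby maintains E-cadherin. In each hairpin 1 arm usually becomes the guide loaded into Argonaute, and the opposite arm is mostly degraded. A guide recognises its targets mainly through its seed, bases 2 to 8.

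All 8 members matched a mature sequence in RefSeq (GRCm38.p6), and they carried 5 seeds. The sequences are shown because the seed sets which targets a member can share with another; capitals mark the seed, and each is written from its first base at the 5′ end. The 3 members of the miR-183 cluster had a seed each:
miR-183-5p: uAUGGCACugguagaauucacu
miR-96-5p: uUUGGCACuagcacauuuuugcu
miR-182-5p: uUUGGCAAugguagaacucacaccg
The 5 members of the miR-200 family divided into a seed shared by 3 and a seed shared by 2:
miR-200b-3p: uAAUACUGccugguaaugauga
miR-429-3p: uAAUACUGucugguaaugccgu
miR-200c-3p: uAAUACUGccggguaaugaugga
miR-200a-3p: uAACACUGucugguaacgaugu
miR-141-3p: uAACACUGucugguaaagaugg

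Over the 22 bases that both cover, miR-200b-3p and miR-200c-3p differed at 2 positions, miR-200a-3p and miR-141-3p at 2, and miR-182-5p and miR-183-5p at 4. No source used here says how reads matching more than 1 entry were counted, so levels of these near copies are uncertain to that extent.

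The 8 hairpins lie in 3 places of the genome, all on the minus strand. In GRCm38.p6 the miR-183, miR-96 and miR-182 hairpins span chr6:30165918-30169737, and no other gene of the GENCODE annotation overlaps them. The miR-200b, miR-200a and miR-429 hairpins span chr4:156053905-156055750, within introns of the protein-coding gene Ttll10, and the miR-429 hairpin also overlaps an exon of the processed transcript Gm13648. The miR-200c and miR-141 hairpins span chr6:124717914-124718390, within introns of Gm15884, and the miR-141 hairpin also overlaps an exon of Gm29008.

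Total counts ranged from 856591 to 1903416 per library. Levels are given in CPM, counts brought to a common library size by each library's total times its TMM factor (edgeR's correction for composition, 0.676 to 1.51 here). All mature members are 22 to 25 bases long, so no correction for length was made between them, and none for how readily each sequence is ligated. Bulk tissue cannot tell a larger share of cells of a type from more RNA per cell. Of the 8 members, 6 passed the filter on low counts, and miR-96-5p and miR-200c-3p did not.

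All 8 members were highest in the same 2 libraries, sham replicate 2 and ipsi_6h replicate 3. These libraries share neither treatment nor day of surgery. The 4 other libraries of their groups were far below them. Of these 4, sham replicate 3 held the highest level among the remaining 25 libraries for miR-96-5p, miR-200c-3p and miR-141-3p. The values below are a description, since these libraries were known to stand apart when the members were chosen.

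miR-182-5p, the member with the highest levels there, stood at 22387 CPM (25654 counts) in sham replicate 2 and at 20196 CPM (24364 counts) in ipsi_6h replicate 3. Its lowest, median and highest levels in the other 25 libraries were 62.5, 143 and 329 CPM. The highest of these was 61.4-fold below the lower of the 2 libraries. miR-183-5p, from the same cluster, stood at 2090 and 1597 CPM in the 2 libraries against 153, 229 and 700 CPM in the rest, and its highest other library was ipsi_24h replicate 1. miR-96-5p, whose seed mutations cause hearing loss in mice and people, stood at 64.6 and 96.2 CPM (74 and 116 counts) against 0, 3.77 and 8.07 CPM. The gap was narrowest for miR-183-5p, at 2.98-fold and 2.28-fold over its highest other library.

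In the miR-200 family, miR-429-3p stood at 2881 CPM in sham replicate 2 and 1646 CPM in ipsi_6h replicate 3, against a lowest, median and highest level of 30.1, 61.7 and 165 CPM in the other 25. miR-200b-3p, which shares its seed, stood at 669 and 605 CPM against 25.2, 48.3 and 76.9 CPM. miR-200c-3p, the third with that seed, stood at 60.2 and 34.0 CPM (69 and 41 counts) against 0, 2.14 and 6.05 CPM. In these 3 members sham replicate 2 was the higher of the 2 libraries.

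Of the pair with the other seed, miR-200a-3p stood at 586 CPM in sham replicate 2 and 872 CPM in ipsi_6h replicate 3, against 2.52, 7.94 and 21.7 CPM in the rest. miR-141-3p stood at 1072 and 405 CPM against 2.14, 8.22 and 18.2 CPM. The 2 libraries did not hold the members in 1 ratio: sham replicate 2 over ipsi_6h replicate 3 ranged from 0.671 for miR-200a-3p and 0.672 for miR-96-5p to 2.65 for miR-141-3p. Members encoded together differed as well, with 0.671 for miR-200a-3p and 1.75 for miR-429-3p.

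**Figure D1:**
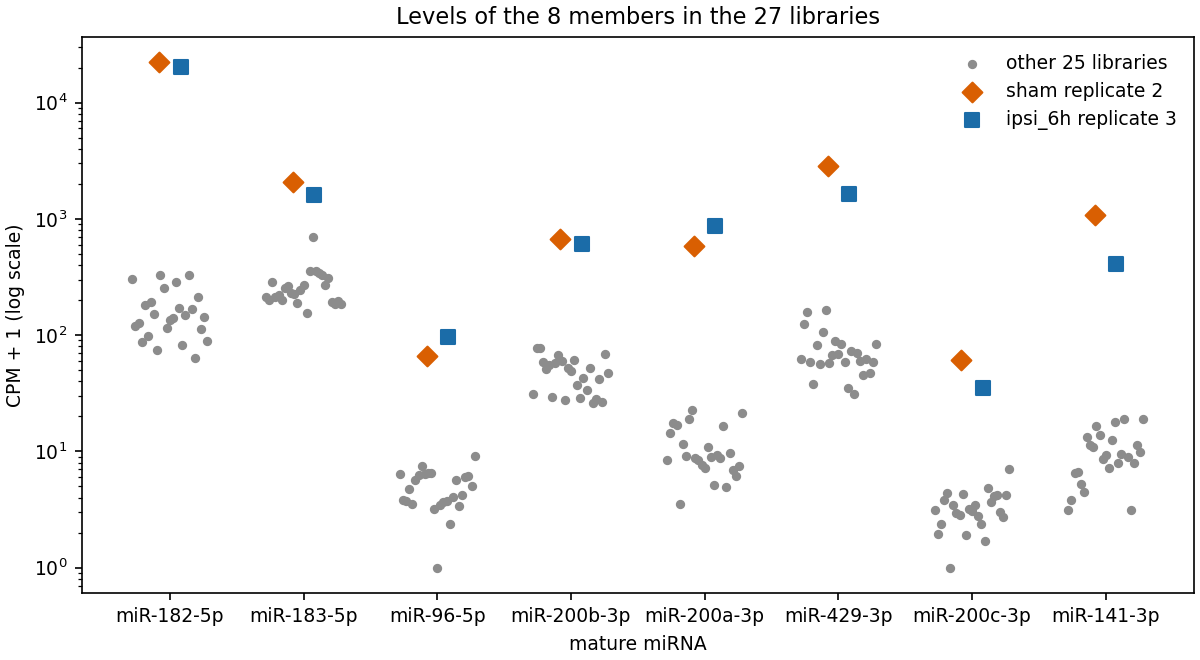
Level of each of the 8 members (CPM + 1, log axis) in the 27 libraries; grey points are the other 25 libraries, the diamond sham replicate 2 and the square ipsi_6h replicate 3. For every member both marked libraries lie above all grey points, from miR-183-5p at 2090 and 1597 CPM over 700 CPM to miR-182-5p at 22387 and 20196 CPM over 329 CPM.

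Together the 8 members took 2.51% of all counts in sham replicate 2 (95% Wilson interval 2.49% to 2.54%) and 2.63% in ipsi_6h replicate 3 (2.60% to 2.66%). In the other 25 libraries they took 0.0309% to 0.138%, with a median of 0.0533%. These intervals cover counting error only, since amplified reads are not independent molecules. The make-up of the 8 differed too. miR-182-5p supplied 75.1% and 79.4% of the members' counts in the 2 libraries, and 12.8% to 48.5% in the rest.

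In the other 25 libraries the order of the members by median level was miR-183-5p, miR-182-5p, miR-429-3p, miR-200b-3p, miR-141-3p, miR-200a-3p, miR-96-5p and miR-200c-3p. miR-200b-3p exceeded miR-141-3p in 25 of 25 libraries. Other neighbours overlapped in range, and the closest were miR-141-3p and miR-200a-3p, with the first above the second in 14 of 25 libraries. miR-183-5p exceeded miR-182-5p in 20 of 25 libraries, whereas miR-182-5p was the higher by far in sham replicate 2 and ipsi_6h replicate 3.

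The same scale was applied to all 1470 entries that passed the filter, as the fold of a library over the median of the other 26. In sham replicate 2, 5 entries (0.34% of the 1470) reached 10-fold, and all 5 were members: miR-182-5p at 154-fold, miR-141-3p at 128-fold, miR-200a-3p at 72.7-fold, miR-429-3p at 45.1-fold and miR-200b-3p at 13.6-fold. The sixth tested member, miR-183-5p, is the one just below 10-fold in the plot of folds in the 2 libraries. Among other entries with a mean of at least 10 CPM, the highest there was miR-5101 at 2.35-fold.

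In ipsi_6h replicate 3, 8 entries (0.544%) reached 10-fold. The same 5 members made up 5 of them, with miR-182-5p at 139-fold, miR-200a-3p at 108-fold, miR-141-3p at 48.4-fold, miR-429-3p at 25.8-fold and miR-200b-3p at 12.3-fold. The other 3 were miR-701-5p at 14.9-fold and miR-3092-5p at 11.9-fold, together with miR-7655-3p, whose mean was below 10 CPM and which was named after its value was seen. None of these 3 reached 10-fold in sham replicate 2.

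**Figure D2:**
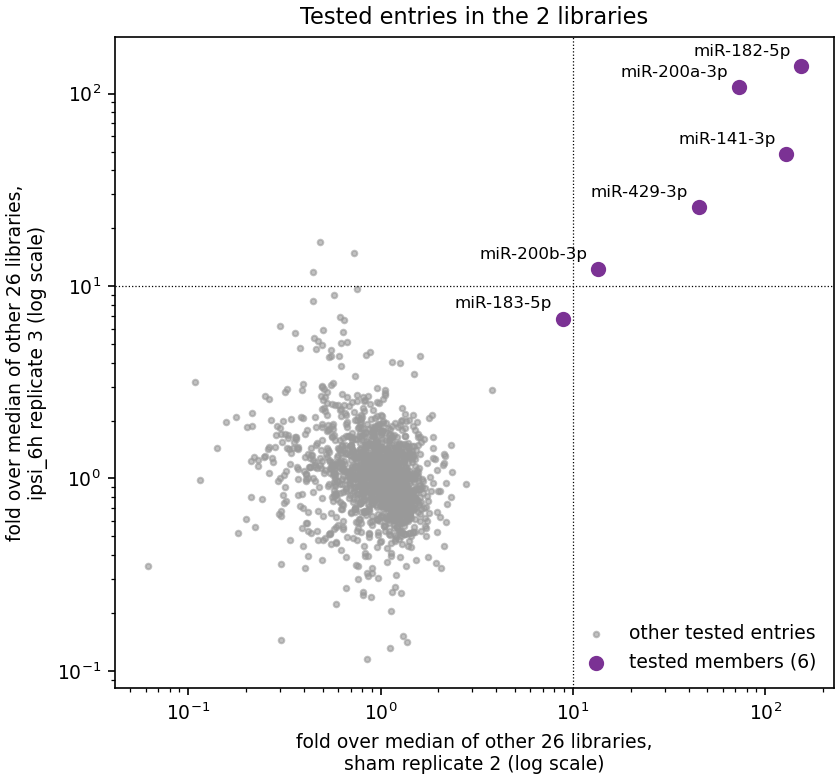
Fold over the median of the other 26 libraries in sham replicate 2 (horizontal, log axis) and ipsi_6h replicate 3 (vertical, log axis) for each of 1470 tested entries; dotted lines mark 10-fold. The 6 tested members lie apart at the upper right, 5 of them past both lines, and no other entry is past both.

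Both libraries stood above all the other 25 for 7 entries, which is 0.476% of the 1470. These were the 6 tested members and miR-200b-5p, the opposite arm of a member's hairpin. Entries at least 10-fold high numbered 91, 40 and 12 in ipsi_24h replicates 1, 2 and 3 and 3, 1 and 48 in ipsi_12h replicates 1, 2 and 3, and none of those was a member.

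The pattern of miR-182-5p over the 27 libraries was compared with that of each of 1001 other entries with a mean of at least 10 CPM, by the root mean square difference of log2 CPM centred on each entry's own median. The 5 nearest were miR-141-3p (0.859 log2 units), miR-200a-3p (1.07), miR-429-3p (1.12), miR-200b-3p (1.31) and miR-183-5p (1.37). The nearest entry that is no member was miR-217-3p at 1.81, against a median of 2.11 over all. Without the 2 libraries no member was among the 5 nearest, and the nearest entry was miR-6950-5p at 0.517 against a median of 0.826. In the remaining 25 libraries miR-183-5p, encoded in the same cluster as miR-182-5p, was at 0.771 and ranked 313 of 1001. miR-141-3p was at 0.825, and miR-200b-3p (0.922), miR-429-3p (0.996) and miR-200a-3p (1.08) lay farther than the median entry. The mean of at least 10 CPM was taken over all 27 libraries. In the remaining 25 miR-200a-3p and miR-141-3p averaged 9.82 and 8.92 CPM, so they entered only through sham replicate 2 and ipsi_6h replicate 3. All libraries compared enter each distance, so the distances are a description.

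The opposite arms of the same hairpins stood far nearer to the other libraries than the members did. miR-182-3p, from the hairpin that gives miR-182-5p, had 9 counts in sham replicate 2 and 10 in ipsi_6h replicate 3, with 2 to 26 in the other 25. The ratio of miR-182-5p to miR-182-3p was therefore 2850 and 2436 in the 2 libraries and 27.2 over the summed counts of the rest. For miR-429 the ratio of the member to the opposite arm was 472 and 662 against 17.3.

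Where the opposite arm was the more abundant in the rest, the order of the arms was the reverse in the 2 libraries. miR-200a-3p to miR-200a-5p was 11.4 and 10.8 in them and 0.233 in the rest. For miR-141 it was 64.7 and 19.5 against 0.731, and for miR-200c it was 4.6 and 4.1 against 0.221. The ratio for miR-96 was 12.3 and 16.6 against 1.12, for miR-183 184 and 60.2 against 13.8, and for miR-200b 38.4 and 45.6 against 8.71, so all 8 hairpins shifted toward the member's arm. The highest fold of any opposite arm over the median of the other 26 libraries was 3.78 in sham replicate 2 and 3.51 in ipsi_6h replicate 3.

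**Figure D3:**
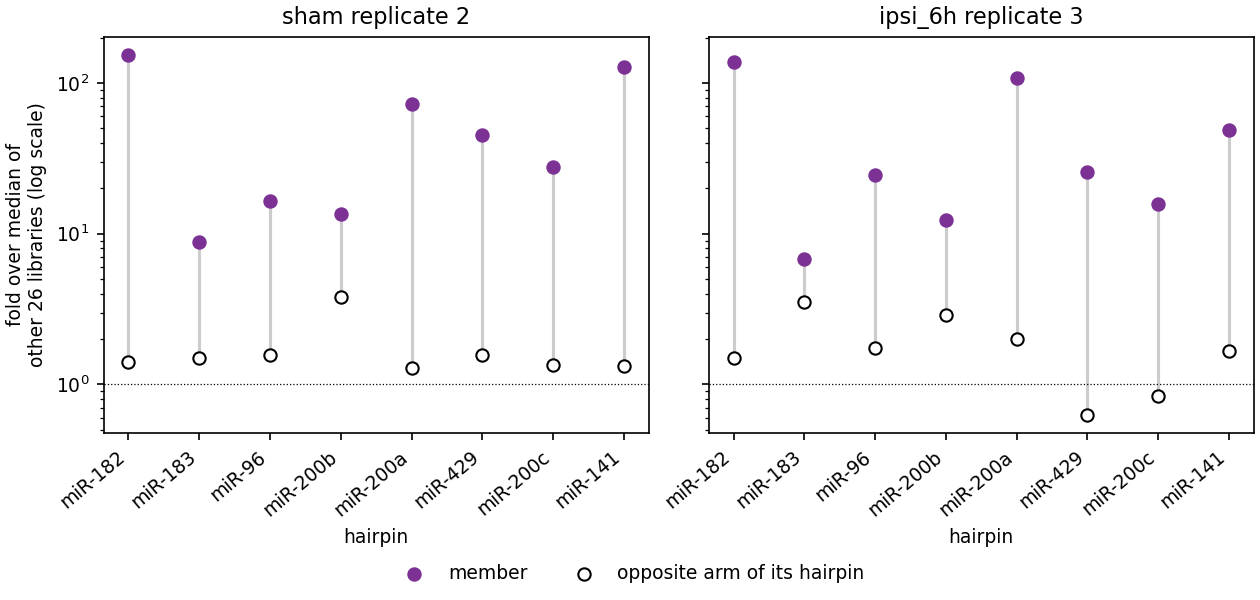
Fold over the median of the other 26 libraries (log axis) of each member (filled) and of the opposite arm of its hairpin (open) in sham replicate 2 and in ipsi_6h replicate 3; the dotted line marks no difference. Members reach 154-fold and 139-fold, while no opposite arm is above 3.78-fold and 3.51-fold.

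Markers of other tissues and cell types were read in the same 2 libraries. The table held 37 entries of 11 lists covering squamous, ciliated, gut and liver epithelium, choroid plexus and pigment epithelium, pituitary and pineal gland, hindbrain, skeletal muscle, erythrocytes, leukocytes and cortical neurons. None reached 10-fold in either library. The highest was miR-144-3p, an erythrocyte miRNA, at 2.03-fold in sham replicate 2, and miR-206-3p, a skeletal muscle miRNA, at 2.45-fold in ipsi_6h replicate 3. In sham replicate 2, miR-144-3p (34.9 over 30.3 CPM) and miR-34b-5p (154 over 146 CPM) lay above all the other 25 libraries. In ipsi_6h replicate 3, miR-138-5p lay above them (8560 over 7325 CPM). There miR-34b-5p (45.6 under 47.9 CPM) and miR-215-5p (7.46 under 7.57 CPM) lay below them.

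The summed level of miR-203-3p, miR-205-5p and miR-184-3p, characteristic of squamous and surface epithelium, was 221 and 183.2 CPM in the 2 libraries against 111 to 323 CPM in the rest. That of miR-375-3p, miR-7a-5p and miR-7b-5p, characteristic of endocrine cells and pituitary, was 313 and 319 CPM against 125 to 370 CPM. The pineal entries miR-483-3p and miR-483-5p summed to 12.2 and 22.4 CPM against 7.67 to 21.1 CPM. Their sum in ipsi_6h replicate 3, from 14 and 13 counts, was thus above all the rest, and this was not tested. The sums of all other lists lay within the range of the rest. The 6 cortical neuron miRNAs, among them miR-124-3p and miR-9-5p, summed to 163746 and 98073 CPM against 69607 to 205230 CPM, so neuronal miRNAs were abundant in all libraries. miR-1271-5p, which has the seed of miR-96-5p, and 3 listed muscle and erythrocyte entries were not analysed here.

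The first comparison asked whether the occluded hemisphere differed from the opposite one at each time. In edgeR's quasi-likelihood test with Benjamini-Hochberg adjustment over all 1470 entries, an adjusted p under 0.05 was a call. None of the 6 tested members was called at 3, 6, 12 or 24 h, where 0%, 0%, 4.35% and 13.3% of all entries were called. DESeq2, which returned an adjusted p for 3 of the 6, called none of those 3. At an unadjusted p under 0.05 the members numbered 0, 6, 0 and 0, against 3.95%, 4.35%, 11.2% and 23.9% of all entries. P-values rest on a spread shared over all 9 groups, from libraries of 3 separate days of surgery. At 24 h the SE of miR-182-5p was 1.52 with all libraries. It was 0.54 without sham replicate 2 and ipsi_6h replicate 3, neither of them in that comparison. The lack of calls at 3, 12 and 24 h therefore does not show equal levels.

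At 6 h the 6 members had positive log2 fold changes that rested on 1 library. miR-182-5p was at 214, 111 and 20196 CPM in ipsi_6h replicates 1, 2 and 3 and at 329, 252 and 115 CPM in contra_6h. The log2 fold change was 4.88 ± 1.75 (SE, n = 3 per group; edgeR, adjusted p = 0.68). miR-200a-3p had the largest, at 5.33 ± 1.48 (edgeR, adjusted p = 0.28), and the other 4 lay between 1.59 for miR-183-5p and 3.54 for miR-141-3p. Without ipsi_6h replicate 3 all 6 turned negative, from -0.22 for miR-183-5p to -0.52 for miR-182-5p.

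Averaged over the 4 times, 0 of 6 members were called between hemispheres in edgeR, with 11.6% of all entries called. DESeq2 called 0 of the 3 members with an adjusted p, and 2 of 6 had an unadjusted p under 0.05 in edgeR, against 21.4% of all. The members' median log2 fold change was 0.83, with 0 of 6 below 0. Without sham replicate 2 and ipsi_6h replicate 3 it was -0.24, with 3 of 6 below 0, and again 0 were called. A joint edgeR test of whether the difference between hemispheres changed with time called 0 of 6, with 0.612% of all entries called. There 1 member, miR-200a-3p, had an unadjusted p under 0.05 (edgeR, 0.014), against 9.32% of all entries, and DESeq2 called 0 of 3. Without the 2 libraries the unadjusted p of miR-200a-3p was 0.99 in edgeR. The 1 member under 0.05 was then miR-183-5p (edgeR, 0.032).

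The second comparison set each hemisphere against sham. In edgeR none of the 6 members was called in ipsilateral cortex at 3 h or 6 h (0% and 0% of all entries). At 12 h 2 members were lower than sham and at 24 h 5 were, where 0.68% and 1.36% of all entries were called lower. At an unadjusted p under 0.05 the members numbered 6, 0, 6 and 5 at the 4 times, against 5.85%, 3.67%, 14.4% and 24.1% of all entries. These numbers are no time course, since at 6 h ipsi_6h replicate 3 stood against sham replicate 2. The log2 fold change of miR-182-5p was -0.14 there. Without these 2 libraries the members with such a p numbered 0, 0, 0 and 1. With all libraries DESeq2, which gave an adjusted p for 3 of the 6, called 2 of those 3 at 3 h. It called 0 at 6 h, 1 at 12 h and 2 at 24 h. The share of all entries that DESeq2 called is not given here, so these counts lack a background.

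The sham replicates behind these calls were far apart. miR-429-3p was at 57.5, 2881 and 82.7 CPM in sham replicates 1, 2 and 3 and at 34.1, 72.1 and 30.1 CPM in ipsi_24h, and its log2 fold change was -4.46 ± 1.17 (SE, n = 3 per group; edgeR, adjusted p = 0.0096). The ipsi_24h levels overlap those of sham replicates 1 and 3. miR-141-3p was at -5.06 (edgeR, adjusted p = 0.0097), miR-200a-3p at -4.91 (0.020), miR-200b-3p at -2.94 (0.028) and miR-182-5p at -5.82 (0.040). At 12 h miR-141-3p was at -5.38 (edgeR, adjusted p = 0.021) and miR-429-3p at -3.86 (0.047).

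Without sham replicate 2 none of these 7 calls remained, and edgeR gave adjusted p of 0.71 or more. miR-429-3p at 24 h was then at -0.62 and miR-182-5p at 0.21. That fit keeps ipsi_6h replicate 3, which widens the shared spread. With both libraries left out, miR-200b-3p at 24 h was at -0.74 (edgeR, adjusted p = 0.42) and miR-200a-3p at -0.94 (0.44). There miR-429-3p had an adjusted p of 0.56, miR-141-3p of 0.82 and miR-182-5p of 0.91 (edgeR). The 12 h calls also ended without ipsi_12h replicate 1, 2 or 3. At 24 h the count fell to 0, 2 and 1 without ipsi_24h replicate 1, 2 and 3. It was 7 of 8 without sham replicate 1 or 3. With 1 library left out the filter asks for 2 libraries, not 3, so such fits can also test miR-96-5p and miR-200c-3p. Outside sham replicate 2 and ipsi_6h replicate 3 these members reached at most 8.07 and 6.05 CPM. They passed the filter only through those libraries, where they were known to be high, so the count of 7 is no added support. The share of all entries called in each of these fits is not given here, so the counts lack a background. With the day of surgery as a block, edgeR called 0 members at 12 h and 1 at 24 h, miR-429-3p.

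In contralateral cortex edgeR called 0 of 6 members against sham at 3, 6, 12 and 24 h, with 0%, 0%, 0% and 0% of all entries called. DESeq2 called 0 of the 3 with an adjusted p. All 6 members had an unadjusted p under 0.05 at each of these times, against 1.77%, 2.31%, 4.35% and 2.24% of all entries. Without sham replicate 2 and ipsi_6h replicate 3 the members with such a p numbered 0, 0, 1 and 1 of 6. The contralateral and ipsilateral comparisons share the same sham libraries, sham replicate 2 among them. The median log2 fold change of the 6 members in contralateral cortex was -3.46, -4.32, -3.59 and -4.25 at the 4 times, where the median over all entries was 0.02, -0.03, -0.04 and -0.03. Without the 2 libraries the members' medians were 0.25, -0.06, 0.20 and -0.16.

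**Figure D4:**
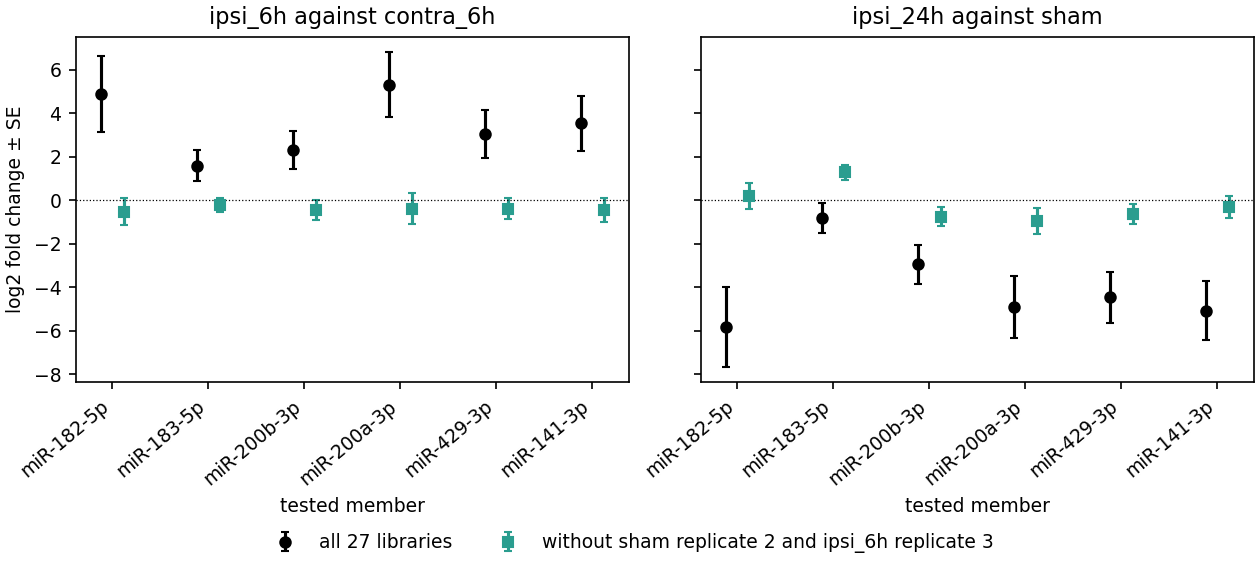
Log2 fold change with its standard error of the 6 tested members for ipsi_6h against contra_6h (left) and ipsi_24h against sham (right), fitted on all 27 libraries (circles) and without sham replicate 2 and ipsi_6h replicate 3 (squares). With all libraries the values lie between 1.59 and 5.33 on the left and between -5.82 and -0.82 on the right; without the 2 libraries they lie between -0.52 and -0.22 and between -0.94 and 1.29.

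Without the 2 libraries, miR-183-5p was the 1 member of 6 that edgeR called between hemispheres at 24 h. It was at 700, 355 and 344 CPM (1027, 512 and 446 counts) in ipsi_24h replicates 1, 2 and 3 and at 213, 219 and 201 CPM (226, 260 and 172 counts) in contra_24h. The groups did not overlap, and ipsi_24h replicate 1 was the highest. Sham replicates 1 and 3 were at 195 and 186 CPM.

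With all 27 libraries the log2 fold change of miR-183-5p between hemispheres at 24 h was 1.15 ± 0.70 (SE, n = 3 per group; edgeR, adjusted p = 0.34). Without sham replicate 2 and ipsi_6h replicate 3, neither of which is in the groups compared, it was 1.14 ± 0.30 (edgeR, adjusted p = 0.0098), where 11.3% of 1505 tested entries were called higher. With ipsi_24h replicate 1 left out as well it was 0.81 ± 0.29 (edgeR, adjusted p = 0.12). Against sham at 24 h it was -0.82 ± 0.69 with all libraries, and 1.29 ± 0.34 (edgeR, adjusted p = 0.017) without the 2 libraries, where 8.04% of entries were called higher. That difference became 0.93 ± 0.32 (edgeR, adjusted p = 0.13) without ipsi_24h replicate 1.

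The opposite arm of the same hairpin is printed because it was the only 1 of the 5 tested opposite arms called at 24 h:
miR-183-3p: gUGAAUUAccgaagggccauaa
miR-183-3p was at 170, 61.7 and 10.0 CPM (250, 89 and 13 counts) in ipsi_24h and at 2.83, 2.52 and 9.33 CPM (3, 3 and 8 counts) in contra_24h. The groups did not overlap, and ipsi_24h replicate 3 lay close to the highest contra_24h library. The log2 fold change was 4.10 ± 0.90 (SE, n = 3 per group; edgeR, adjusted p = 0.0019), where 11.8% of all entries were called higher.

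Without ipsi_24h replicate 1 the log2 fold change of miR-183-3p was 2.95 (edgeR, adjusted p = 0.050, just above the threshold, so the call ended). Without sham replicate 2, ipsi_6h replicate 3 and ipsi_24h replicate 1 together it was 3.02 ± 0.83 (edgeR, adjusted p = 0.025). Against sham at 24 h it was 3.38 ± 0.83 (edgeR, adjusted p = 0.0054), and 2.23 without ipsi_24h replicate 1 (adjusted p = 0.15). ipsi_24h replicate 1 is also the library with the most entries at least 10-fold high, 91, and the part of that in the result was not tested.

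The 24 h groups of 2 further members did not overlap, and neither member passed the test. The share of all entries whose 24 h groups do not overlap is not given here. This count and the separations of miR-183-5p and miR-183-3p therefore lack a background. miR-141-3p was at 17.0, 6.94 and 8.49 CPM (25, 10 and 11 counts) in ipsi_24h and at 5.65, 4.20 and 3.50 CPM (6, 5 and 3 counts) in contra_24h, again highest in ipsi_24h replicate 1. Its log2 fold change without the 2 libraries was 1.25 ± 0.54 (SE, n = 3 per group; edgeR, unadjusted p = 0.029, adjusted p = 0.15). miR-200b-3p was at 27.96, 41.6 and 32.4 CPM in ipsi_24h and at 57.4, 50.5 and 54.8 CPM in contra_24h, with a value of -0.67 ± 0.41 in that fit (edgeR, adjusted p = 0.34).

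miR-182-5p, encoded in the same cluster as miR-183-5p, was not called at 24 h. It was at 171, 81.9 and 148 CPM in ipsi_24h and at 86.6, 179 and 98.0 CPM in contra_24h, and the groups overlapped. Without the 2 libraries its log2 fold change was 0.13 ± 0.54 (edgeR, adjusted p = 0.91). Whether miR-182-5p and miR-183-5p differed from each other in response was not tested.

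**Figure D5:**
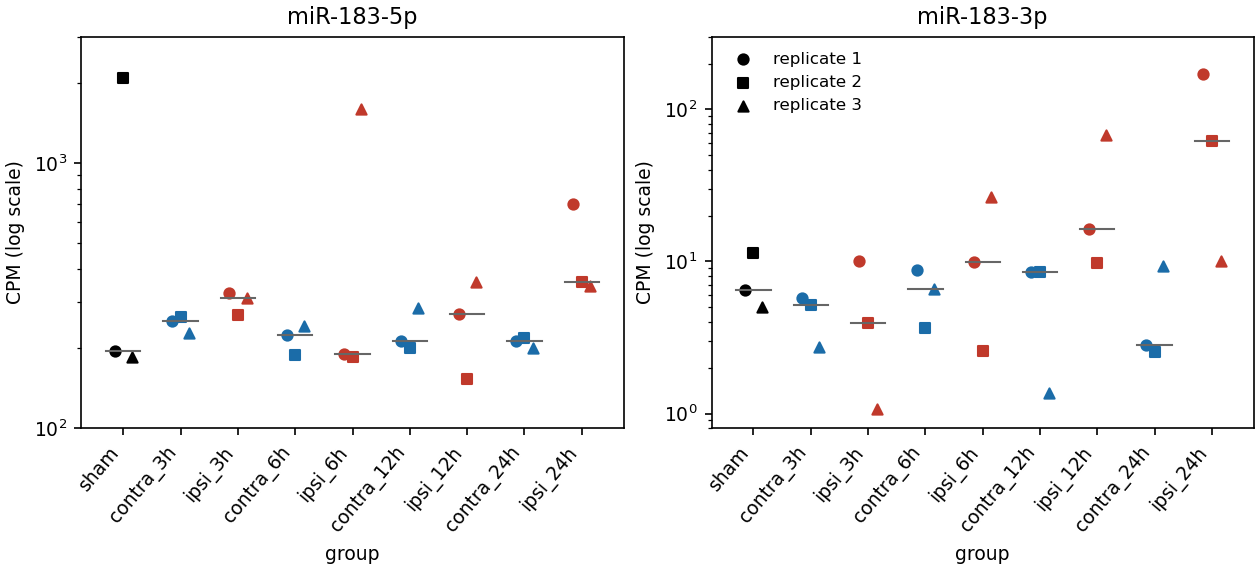
Levels (CPM, log axis) of miR-183-5p and of the opposite arm miR-183-3p in each library by group; symbols give the replicate number, grey lines the group medians, black sham, blue contra and red ipsi. At 24 h the ipsi libraries of miR-183-5p (344 to 700 CPM) lie above the contra libraries (201 to 219 CPM), and miR-183-3p reaches 170 CPM in ipsi_24h replicate 1.

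Across days of surgery the members' ranges overlapped once the 2 libraries were set aside. The median level of miR-182-5p was 190 CPM over 9 libraries of replicate number 1, 145 CPM over 8 of number 2 and 106 CPM over 8 of number 3, within ranges of 86.6 to 329, 81.9 to 252 and 62.5 to 286 CPM. For miR-429-3p the medians ran the other way, at 57.5, 69.2 and 82.2 CPM, again with overlapping ranges.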

How the data were processed

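The authors deposited raw counts of 1842 mature miRNA entries in 27 libraries. The submitters' processing notes list Novoalign and edgeR but give them no role. The genome build, annotation release and treatment of multiple matches are not given in the sources used. Per the labels' protocols, inserts of 15 to 35 bp were sequenced. Here, edgeR 4.0.16 (R 4.3.3) fitted 1 mean per group to all libraries (quasi-likelihood F test, TMM factors, robust dispersions, 18 residual degrees of freedom). After filterByExpr, 1470 entries were tested, holding 99.9% of counts, and p-values were adjusted by Benjamini-Hochberg over them. The fits were also run on simulated counts, for ipsi_24h against contra_24h only. No library was made to stand apart there, so that run does not cover such libraries. CPM were computed here. The named entries were the 8 members, their opposite arms, marker lists, and the non-members most like miR-182-5p or highest in the 2 libraries (mean at least 10 CPM). Members and lists were chosen with earlier results of these data known. Replicate numbers mark the day of surgery in the series' design text, which pairs libraries by number. Deviations from group means correlated at 0.22 over 108 same-numbered pairs and -0.11 over 216 others. Deviations within a group cancel out, so the second value largely follows from the first and is no separate control. Alternatives were DESeq2 1.42.0, other scalings, no filter, a replicate block and libraries left out.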

Additional observations from a re-analysis of the deposited data

How the results depend on the processing

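Alternatives were edgeR on total counts, edgeR with RLE size factors, DESeq2, no filter, the replicate block, the 6 compared libraries alone, each library left out, and sham replicate 2 with ipsi_6h replicate 3 left out together. One more, leaving out ipsi_24h replicate 1 as well, was chosen after seeing the data. Depth limits miR-96-5p and miR-200c-3p, with medians of 4 and 2 counts in the 25 other libraries. In each of these settings that applied, 0 members were called between hemispheres at 3, 6 and 12 h, over the mean of times and in the test of change with time, in ipsi_6h against sham, and in contralateral cortex against sham at 3 and 6 h. The number of members at least 10-fold high was 7 of 8 in each of the 2 libraries, on TMM and on total counts.

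For ipsi_24h against contra_24h the count was 0, and 1 (miR-183-5p) without the 2 libraries or with the 6 compared alone, where its log2 fold change was 1.12. For ipsi_3h against sham it was 0, and 2 in DESeq2. For ipsi_12h against sham it was 2, but 0 on total counts, 1 with RLE, 1 in DESeq2, 0 without a filter, 0 with the replicate block, 0 without the 2 libraries, 0 with the 6 compared alone, and 0 to 5 with single libraries left out. For ipsi_24h against sham it was 5, but 2 on total counts, 2 in DESeq2, 3 without a filter, 1 with the replicate block, 1 without the 2 libraries (miR-183-5p, higher), 0 with the 6 compared alone, 0 without ipsi_24h replicate 1 as well, and 0 to 7 with single libraries left out. The fits that gave 7 also tested miR-96-5p and miR-200c-3p, which passed the filter only through sham replicate 2 and ipsi_6h replicate 3. For contralateral cortex against sham the count was 0, and 0 to 1 at 12 h and at 24 h with single libraries left out, the 1 being without sham replicate 1. Members among the 5 entries nearest miR-182-5p numbered 5, and 0 without the 2 libraries. Of these, miR-200a-3p and miR-141-3p met the required mean level only through the 2 libraries. The replicate block changed no other call of a member. The share of all entries called in each setting is not given here, so a change in these counts may not be particular to the members.

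At 6 h the hemisphere difference turned negative without the 2 libraries for miR-183-5p (-0.22), miR-182-5p (-0.52), miR-200b-3p (-0.45), miR-200a-3p (-0.37), miR-429-3p (-0.38) and miR-141-3p (-0.46). With single libraries left out, the log2 fold changes ranged in that order from -0.22 to 2.03, -0.52 to 5.46, -0.45 to 2.83, -0.37 to 5.91, -0.38 to 3.60 and -0.46 to 4.09, the negative ends all without ipsi_6h replicate 3. Against sham at 24 h, miR-182-5p turned to 0.21 without the 2 libraries and to 0.043 without ipsi_24h replicate 1 as well, and ranged from -6.51 to 0.21 with single libraries left out. There miR-183-5p turned to 1.29 and to 0.93, and ranged from -1.40 to 1.29. The positive ends were without sham replicate 2. These changes follow from the libraries left out, and for the other settings the cause was not tested.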
